A study of Capra hircus with 6 samples.

Results

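The glucocorticoid-responsive genes described here are NR3C1, which encodes the glucocorticoid receptor, and 7 genes known to be induced by it, TSC22D3, FKBP5, PER1, KLF9, SGK1, DDIT4 and CRISPLD2. They were chosen by gene symbol, and all 8 are among the 24779 genes of the count table. Counts came from peripheral blood mononuclear cells (lymphocytes, monocytes and dendritic cells) of goat kids (Capra hircus) that were fed either doe's milk as the control or milk replacer as the test, with 3 libraries per feed. The doe-milk libraries are called D1, D2 and D3 and the replacer-milk libraries R1, R2 and R3, by the replicate numbers of the labels. Breed, age and time of sampling are not given in the labels, and no other treatment is named for either feed. The comparison asks whether the 2 feeds left these cells with different levels of the genes.

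Glucocorticoids, of which cortisol is the main one in ruminants, cross the cell membrane and bind the receptor, which waits in the cytoplasm in a complex with heat shock proteins. The bound receptor enters the nucleus, switches on genes that carry its response elements, and holds back the inflammatory genes driven by NF-kB and AP-1. In white blood cells the induced genes include brakes on inflammation, on growth signalling and on the receptor itself, and several of them also answer to other signals. These roles are known mainly from human and mouse cells.

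Counts of 2 different kinds were found within each feed. D1, D2 and R1 held blood cell transcripts, with the T cell gene CD3E at 405 to 490.2 CPM (each gene's share of all counts in its library, on the usual CPM scale). D3, R2 and R3 followed the genomic span of each gene (Spearman correlation of counts with span 0.893 to 0.896, against 0.374 to 0.387 in the others), and CD3E stood at 13.3 to 23.3 CPM in them. The first 3 are called transcript-like here and the other 3 span-proportional. Total counts ran from 48063350 to 57204363 in the transcript-like libraries and from 25023210 to 27129143 in the span-proportional ones. The feeds were therefore compared mainly within the transcript-like libraries, with 2 libraries of doe milk against 1 of replacer milk.

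In the transcript-like libraries none of the 8 genes differed between the feeds beyond the test's threshold. CRISPLD2 lay furthest down in replacer milk, at 0.495 times the doe-milk level in the fit, and KLF9 and PER1 lay furthest up, at 1.76 and 1.51 times. TSC22D3, SGK1, NR3C1 and DDIT4 lay between 0.911 and 1.18 times. NR3C1, FKBP5 and DDIT4, and SGK1 by a small margin, differed more between D1 and D2 than between the feeds. The fit was edgeR's quasi-likelihood test over 17356 genes, in which 0 of the 8 and 3 of all genes (0.0173%) had an adjusted p below 0.05. DESeq2 and limma voom also called 0 of the 8. At an unadjusted p below 0.05 there were 2 of the 8, CRISPLD2 and KLF9, against 5.35% of all genes. The replacer-milk side is 1 library, which is assumed to vary like doe milk, and the fit has 1 residual degree of freedom before it borrows spread across genes.

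**Figure D1:**
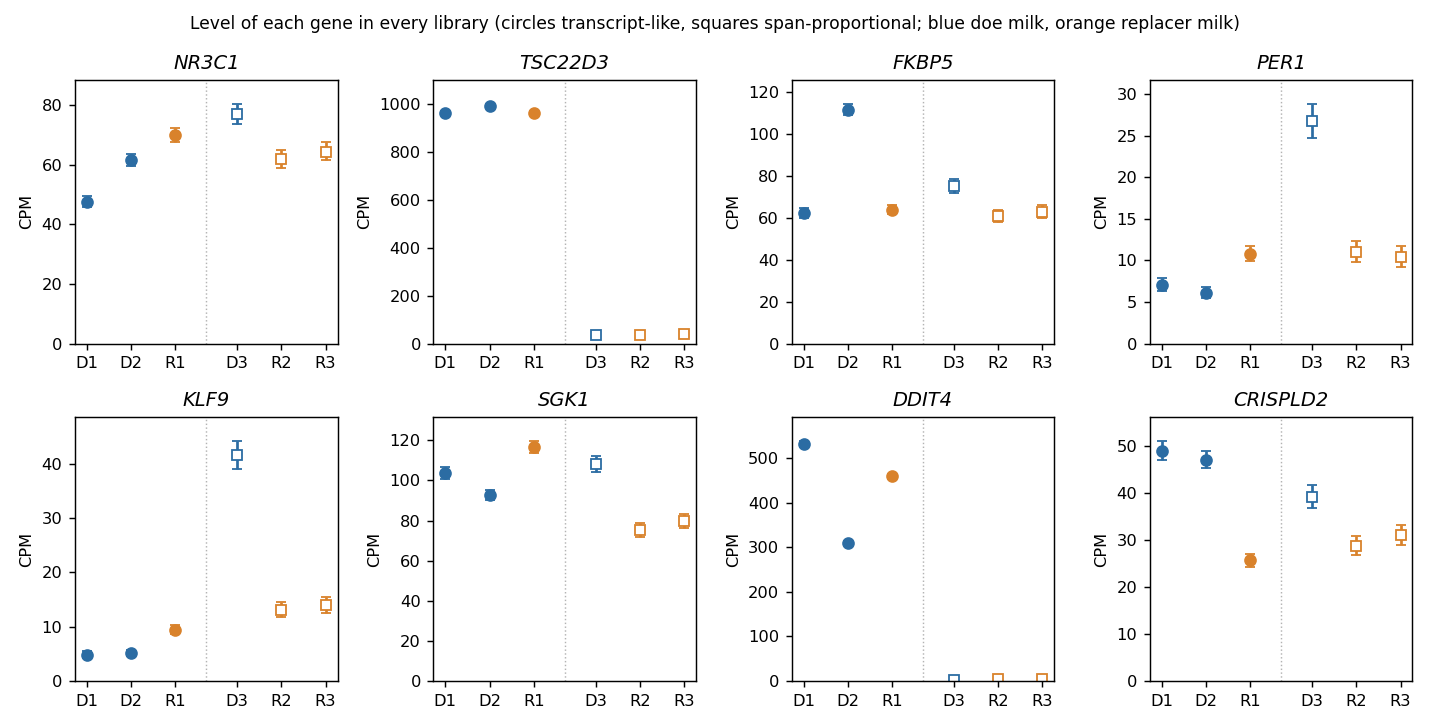
CPM of each gene (vertical axes, from 0) in doe-milk libraries (D1 to D3, blue) and replacer-milk libraries (R1 to R3, orange), with 95% exact Poisson intervals that cover counting error only. Circles left of the dotted line are transcript-like libraries and squares right of it span-proportional ones. TSC22D3 and DDIT4 are far higher in the circles, and CRISPLD2 is the gene whose R1 lies furthest below D1 and D2 relative to its level.

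NR3C1, the receptor through which the other 7 genes answer the hormone, had 47.7 and 61.6 CPM in D1 and D2 and 70.0 CPM in R1. The replacer-milk library was the highest of the 3, but the 2 doe-milk libraries were further apart than the higher of them and the replacer-milk library. The log2 fold change, replacer milk minus doe milk after TMM scaling, was 0.24 (SE 0.24, unadjusted 95% interval −0.34 to 0.83, edgeR adjusted p = 0.979). Without D1 it was 0.065, and without D2 it was 0.44.

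FKBP5 encodes a co-chaperone that lowers the hormone affinity of the receptor and is itself induced by it, a short feedback loop. It stood at 62.3 CPM in D1, at 111.6 CPM in D2 and at 63.8 CPM in R1. D2 stood apart, at 1.79 times D1, while R1 was close to D1. R1 lay between the doe-milk libraries in CPM and just below both after TMM scaling. In the fit FKBP5 had a log2 fold change of −0.56 (SE 0.41, interval −1.68 to 0.56, edgeR adjusted p = 0.979). It was −0.92 without D1 and −0.077 without D2.

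The ratio of FKBP5 to NR3C1 counts within a library does not depend on scaling. It was 1.31 and 1.81 in D1 and D2 and 0.912 in R1, which was the lowest of the 3. This ratio was computed after the values were seen and was not tested.

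TSC22D3 encodes the glucocorticoid-induced leucine zipper protein GILZ, which binds NF-kB and AP-1 subunits and dampens inflammatory transcription. Between 46267 and 56754 counts per transcript-like library stood behind it, so that counting error was small. Its levels were 963 and 992 CPM in doe milk and 962 CPM in replacer milk. All 3 libraries lay close together, and the doe-milk libraries differed by 1.03 times. The log2 fold change was −0.13 (SE 0.19, interval −0.59 to 0.33, edgeR adjusted p = 0.979), and −0.023 when scaled by library totals only. Differences inside this interval were not resolved.

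DDIT4, also called REDD1, encodes an inhibitor of the growth kinase complex mTORC1 and is induced by glucocorticoids, by low oxygen and by other stresses. It stood at 532 CPM in D1, 309.7 CPM in D2 and 459.5 CPM in R1. The replacer-milk library lay between the doe-milk libraries, which differed by 1.72 times. DDIT4 had a log2 fold change of 0.018 (SE 0.36, interval −0.93 to 0.97, edgeR adjusted p = 0.999), and its sign turned to −0.32 without D2.

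SGK1 encodes a kinase that keeps sodium channels and other transporters at the cell surface and acts beside AKT. Its levels were 103.7 and 92.7 CPM in doe milk and 117 CPM in replacer milk, with replacer milk the highest of the 3 libraries. For SGK1 the log2 fold change was 0.14 (SE 0.20, interval −0.34 to 0.62, edgeR adjusted p = 0.979). The doe-milk libraries differed from each other by 0.15 on the same scale, about as much as the feeds.

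PER1 encodes a repressor of the circadian clock whose transcription glucocorticoids also raise directly. It had 7.03 and 6.12 CPM in D1 and D2 and 10.8 CPM in R1. Replacer milk lay above both doe-milk libraries, which differed by 1.15 times. PER1 had a log2 fold change of 0.60 (SE 0.31, interval −0.15 to 1.35, edgeR adjusted p = 0.979). Of all genes tested, 21.4% lay at least as far from 0.

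KLF9 encodes a zinc finger transcription factor that is an early target of the receptor and regulates further targets. Levels were 4.76 and 5.07 CPM in doe milk (229 and 290 counts) and 9.37 CPM in R1 (486 counts). The doe-milk libraries differed by 1.06 times, and R1 lay above both. The log2 fold change was 0.82 (SE 0.32, interval 0.027 to 1.61, with 0.921 as the adjusted p in edgeR). It was 0.77 without D1 and 0.86 without D2, and 14.2% of all genes lay at least as far from 0.

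CRISPLD2 encodes a secreted protein that binds bacterial lipopolysaccharide and is induced by glucocorticoids in human airway muscle and lung cells. Its levels were 49.1 and 47.1 CPM in D1 and D2 (2358 and 2693 counts) and 25.7 CPM in R1 (1333 counts). The doe-milk libraries agreed to within 1.04 times and replacer milk lay well below both. CRISPLD2 had a log2 fold change of −1.01 (SE 0.22, interval −1.55 to −0.48, edgeR adjusted p = 0.536). Adjusted p ranged from 0.102 to 0.648 over the other settings that gave one, so the gene was called under none of them. Of all genes tested, 10.1% lay at least as far from 0.

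**Figure D2:**
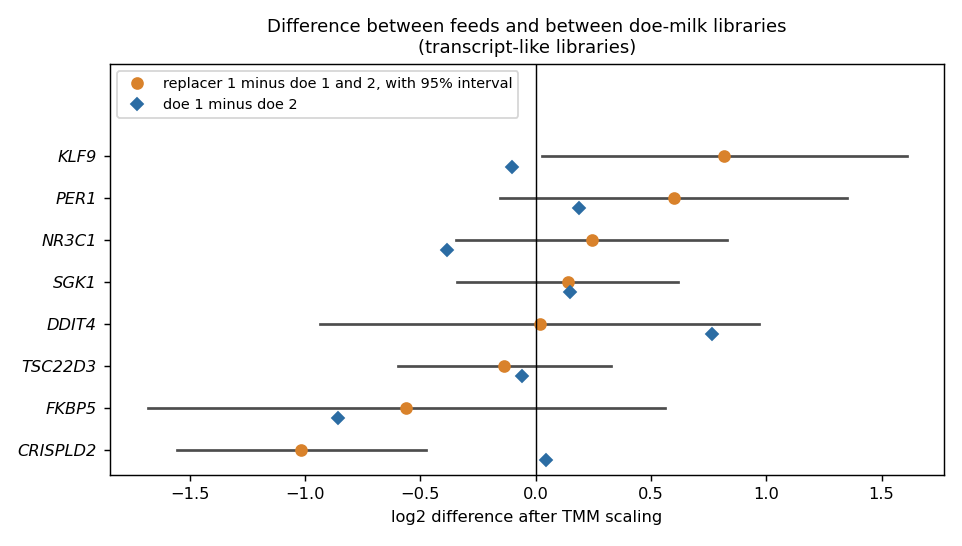
Log2 fold change of each gene (orange circles, R1 minus D1 and D2, with unadjusted 95% intervals) and the log2 difference between the 2 doe-milk libraries (blue diamonds), on 1 horizontal axis. For CRISPLD2, KLF9, PER1 and TSC22D3 the circle lies further from 0 than the diamond. For DDIT4, FKBP5, NR3C1 and, by a small margin, SGK1 the diamond lies further.

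The 8 genes did not move as a block. After TMM scaling R1 lay above both doe-milk libraries for 4 of them (NR3C1, PER1, KLF9 and SGK1), where 34.4% of all genes did. It lay below both for 3 (TSC22D3, FKBP5 and CRISPLD2), where 33.2% of all genes did, and between them for DDIT4. With CPM in place of TMM scaling, FKBP5 moved from below to between. With 8 genes, neither count stands far from its background share. The median log2 fold change of the 8 was 0.078, beside −0.0057 over all genes tested. Without TMM scaling the median over all genes shifts by 0.11, and no member changed sign. The genes furthest apart, KLF9 and CRISPLD2, had a count ratio of 0.0971 and 0.108 in D1 and D2 and of 0.365 in R1, a ratio free of scaling that was chosen after the values were seen.

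Markers of cells that can be carried along with mononuclear cells differed in the same libraries. Of 14 neutrophil markers tested, 12 had negative fold changes (median −0.55), beside 50.6% of all genes tested. The summed level of the 14 markers was 1307 and 905 CPM in doe milk against 776 CPM in replacer milk. The 4 neutrophil markers S100A12, CAMP, FCGR3A and ORM1 were not analysed here. CXCR2, a chemokine receptor of neutrophils, stood at 163 and 58.8 CPM in D1 and D2 against 16.6 CPM, and so differed severalfold between the doe-milk libraries, where CRISPLD2 was within 1.04 times. Platelet markers were negative for 10 of 11 (median −0.26), beside the same 50.6% of all genes, with sums of 723 and 1063 against 863 CPM. Monocyte markers were positive for 4 of 8 (median −0.015), with sums of 657 and 697 against 827 CPM. T cell markers had a median of 0.12, B cell markers −0.041 and natural killer cell markers −0.21. The erythroid list had a median of −0.45 over 5 genes, but went both ways, with 3 negative and 2 positive. The globin HBBC had 1619 and 1794 against 607 CPM (log2 fold change −1.60). ALAS2 had 1.93 and 5.12 against 9.62 CPM (log2 fold change 1.33). No marker in the table was at 0 in a transcript-like library. The part of any of these in the values of the 8 genes was not tested, and in bulk RNA fewer cells of a type and less RNA per cell cannot be told apart.

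Around the receptor, the related genes were listed by role with earlier results of these data known. The 143 related genes tested had a median log2 fold change of 0.017, and 0 were called by edgeR (16 or 11.2% at an unadjusted p below 0.05, beside 5.35% of all genes, with 6 higher and 10 lower). Limma voom called 0 and DESeq2 called 2, NFKBIA and IRS2. The 3 genes that edgeR called in the whole table are listed only by number and belong to none of the lists: LOC102181554 (94.96 and 100.5 against 0.771 CPM), LOC102186914 (257 and 227 against 24.3 CPM) and LOC108637289 (4.47 and 4.9996 against 53.9 CPM). They had edgeR adjusted p of 0.00648, 0.0358 and 0.0358.

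**Figure D3:**
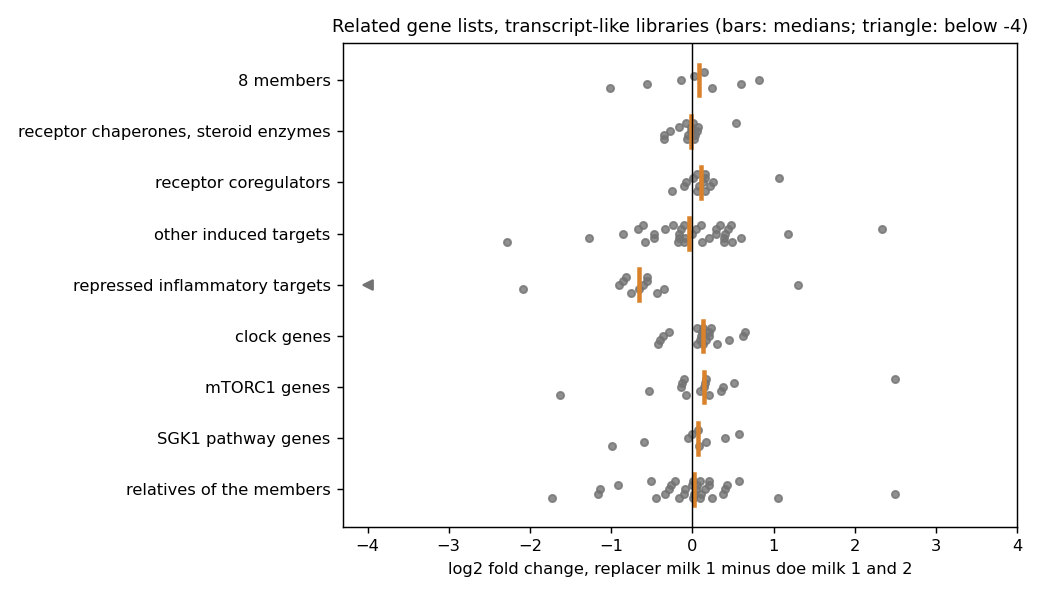
Log2 fold change (horizontal axis, R1 minus D1 and D2) of each tested gene of the 8 members and the related lists, 1 dot per gene. Orange bars are list medians, and the triangle is CSF2, which had 0 counts in R1. The medians lie within 0.15 of 0 for all lists shown except the repressed inflammatory targets, at −0.65.

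The machinery that folds and holds the receptor lay close to 0. The list held 15 tested genes: chaperones, the related receptor NR3C2, the steroid enzyme HSD11B1 and H6PD. Their median was −0.019, and 0 had an unadjusted p below 0.05, beside 5.35% of all genes. R1 lay below both doe-milk libraries for 7, beside 33.2% of all genes, and above both for 4, beside 34.4%. HSPA8, a constitutive HSP70 chaperone that helps fold the receptor, had 922 and 679 against 856 CPM. HSP90AB1, an HSP90 isoform that holds the receptor ready for hormone, had 811 and 853 against 703 CPM (log2 fold change −0.36, SE 0.19). HSP90AA1 was at 557 and 508 against 582 CPM. H6PD, which supplies the cofactor for cortisol regeneration by HSD11B1, had 15.0 and 16.0 against 24.3 CPM. HSD11B1 itself had few counts, at 0.978 and 0.717 against 0.713 CPM.

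Of the 14 receptor coregulators, 11 had positive fold changes (median 0.11), beside 8572 of all 17356 genes. Of the coregulators, 4 lay above both doe-milk libraries and 3 below both, beside 34.4% and 33.2% of all genes. The corepressor NRIP1 stood furthest from 0, with 25.7 and 37.7 CPM in doe milk against 71.8 CPM (log2 fold change 1.07 with SE 0.28, edgeR adjusted p = 0.694). The chromatin remodelling ATPase SMARCA4 had 174 and 174 against 224 CPM, and the histone acetyltransferase CREBBP 96.7 and 129 against 142 CPM.

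Other genes that the receptor is known to induce went both ways. Of 34 tested, 16 had positive and 18 negative fold changes (median −0.046). R1 lay above both doe-milk libraries for 11, beside 34.4% of all genes, and below both for 13, beside 33.2%. At an unadjusted p below 0.05 there were 6 of the 34, with 3 higher and 3 lower, beside 5.35% of all genes. The NF-kB inhibitor NFKBIA had 2089 and 1481 against 799 CPM (log2 fold change −1.27 with SE 0.27, edgeR adjusted p = 0.536). The phosphatase DUSP1, which switches off MAP kinases, had 830.3 and 646 against 503 CPM, and the mRNA decay factor ZFP36 had 1036 and 817 against 552 CPM. These 3 are also known as immediate early or NF-kB-driven genes.

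Among the induced targets with higher values, PDK4, which turns cells from glucose to fat oxidation, had 0.125 and 0.455 against 1.62 CPM (log2 fold change 2.34, SE 0.79, edgeR adjusted p = 0.838), a gene of few counts in D1 and D2. The insulin receptor substrate IRS2 had 29.1 and 38.7 against 82.9 CPM (log2 fold change 1.18, SE 0.25, edgeR adjusted p = 0.511) and the chemokine receptor CXCR4 466 and 528 against 812 CPM (log2 fold change 0.597, edgeR adjusted p = 0.807). Both were chosen after their values were seen. TXNIP, a glucose-sensing inhibitor of thioredoxin, had 689.8 and 564 against 731 CPM, which is above both in CPM and between them after TMM scaling. The decoy interleukin receptor IL1R2 had 4.29 and 0.961 against 0.578 CPM.

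Inflammatory genes that glucocorticoids are known to hold back were mostly lower in R1. Of 13 tested, 12 had negative fold changes (median −0.65), beside 50.6% of all genes. Below both doe-milk libraries lay 10, beside 33.2% of all genes. At an unadjusted p below 0.05 there were 6 lower and 1 higher, beside 5.35% of all genes, and 0 were called over all genes. Among the 6 lower were genes of low level, CSF2 at 0.104 and 0.210 against 0 CPM and IL6 at 1.89 and 0.857 against 0.347 CPM. TNF had 195 and 125 against 92.1 CPM (log2 fold change −0.91, SE 0.31, edgeR adjusted p = 0.868). IL1B had 473 and 674 against 422 CPM, and the prostaglandin-forming enzyme PTGS2 130.2 and 115 against 84.2 CPM. The chemokine CXCL8 had 855 and 222 against 379.5 CPM, with the doe-milk libraries further apart than the feeds. Lower levels of these genes in this library overlap a pattern already known from these data and are not independent of it. The neutrophil and platelet medians of −0.55 and −0.26 in the same fit stand beside this list, and their part in it was not tested.

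The lists around single members had medians near 0, while single genes in them lay further out. The 15 mTORC1 genes, on which DDIT4 acts, had a median of 0.15 and ran from −1.63 for SESN2 to 2.497 for DDIT4L. Of these, 0 were called and 2 had an unadjusted p below 0.05, beside 5.35% of all genes. The 2 were DDIT4L (positive) and EIF4EBP1 (negative), a translation repressor that mTORC1 switches off. EIF4EBP1 was picked after its values were seen. AKT1 stood at 254 and 264 against 309.7 CPM. DDIT4L, a relative of DDIT4, had 0.541 and 0.822 against 4.18 CPM (SE of the log2 fold change 0.50, edgeR adjusted p = 0.489), and the stress sensor SESN2 had 41.4 and 13.0 against 9.46 CPM. The 9 SGK1 pathway genes had a median of 0.068, and NEDD4L, the ubiquitin ligase that SGK1 inhibits, had 26.9 and 32.2 against 30.7 CPM. The 19 clock genes, partners of PER1, had a median of 0.13 with 15 positive, beside 8572 of all 17356 genes. Among these clock genes 0 had an unadjusted p below 0.05. The receptor REV-ERB beta, NR1D2, had 34.8 and 41.2 against 48.0 CPM. Of 32 relatives of the members, such as the lymphocyte factor KLF2 at 851 and 906 against 1012 CPM, 18 were positive and 14 negative, and 1 (DDIT4L) had an unadjusted p below 0.05.

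For CRISPLD2 and KLF9, the genes with the most similar pattern over the 3 transcript-like libraries were taken from 9381 genes of at least 5 CPM, by Euclidean distance of centred log2 CPM. Nearest to CRISPLD2 were the phosphatase DUSP5 (117 and 118 against 62.5 CPM), the fatty acid binding protein FABP3 (41.4 and 39.1 against 22.6 CPM) and the interferon-induced IFI44L (107 and 109 against 59.6 CPM), with PPIF and TREML1 next. Nearest to KLF9 were the small heat shock protein HSPB1 (182 and 192 against 349.7 CPM), the interleukin receptor IL21R (50.02 and 54.6 against 95.8 CPM) and RDH10 (11.1 and 12.5 against 22.2 CPM), with XYLT1 and SOX12 next. With 3 libraries this likeness is a description, and 10 and 16 genes lay within a distance of 0.1.

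In the span-proportional libraries TSC22D3 and DDIT4 stood far below their transcript-like levels. TSC22D3 stood at 35.0 CPM in D3 and at 35.1 and 40.7 CPM in R2 and R3. DDIT4, a gene of 2.13 kb, stood at 2.80 CPM against 3.76 and 4.98 CPM. On the mean over libraries TSC22D3 was 26.3 times and DDIT4 112.7 times higher in the transcript-like libraries. KLF9 went the other way, at 3.57 times higher in the span-proportional libraries, a value that D3 carried in large part. It was 2.11 times higher without D3.

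The other 5 genes had overlapping CPM in the 2 kinds. NR3C1 had 77.0 against 62.0 and 64.5 CPM, FKBP5 75.2 against 60.9 and 62.8 CPM, and SGK1 108 against 75.2 and 79.6 CPM. These 3 genes span 118, 120.04 and 113 kb including introns, and a similar CPM in the 2 kinds is not a similar transcript level. CRISPLD2 had 39.2 against 28.8 and 31.1 CPM. Counts per kb of span, relative to the median gene of the library, were higher in all transcript-like libraries than in any of the others for 6 of the 8 genes, among them 4 of these 5. NR3C1 ran from 2.03 to 2.59 in the transcript-like libraries and from 0.777 to 0.882 in the others. PER1 and KLF9 overlapped on this scale too, with D3 at 2.34 for PER1 against 1.93 to 3.05 in the transcript-like libraries.

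**Figure D4:**
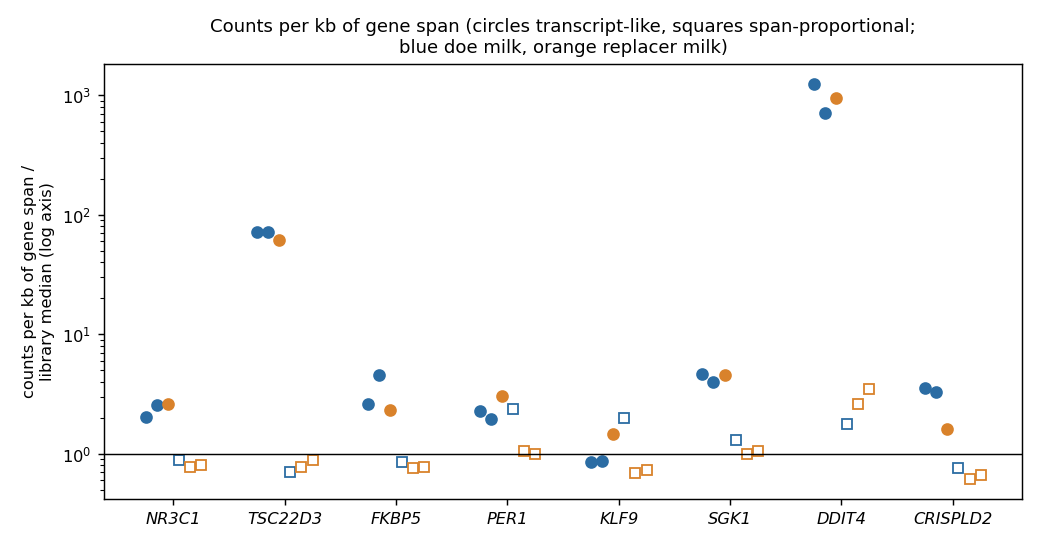
Counts per kb of gene span divided by the median of the library over 12142 autosomal protein-coding genes of at least 10 kb (vertical log axis), for each gene in the 3 transcript-like (circles) and 3 span-proportional libraries (squares). Blue is doe milk and orange replacer milk. Most squares lie near 1, while DDIT4 circles lie between 711 and 1258.

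D3 differed from R2 and R3 for PER1 and KLF9, in the direction opposite to that of the transcript-like libraries. PER1 had 26.7 CPM against 11.1 and 10.4 CPM, and KLF9 had 41.6 CPM against 13.1 and 13.9 CPM, or 3.08 times their mean. Per kb, KLF9 in D3 lay at 1.99 times the library median, where 88.9% of genes lay lower, and at 0.684 and 0.725 in the replacer-milk libraries. D3 was above both for 6 of the 8 genes, beside 56.8% of 20661 genes of at least 1 CPM on average. This is 1 library against 2 that correlated at 0.993 with each other, and no test was made. Whether these values hold transcripts or span was not tested.

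Over all 6 libraries as labelled, none of the 8 genes passed either. The log2 fold changes ran from −1.13 for CRISPLD2 to −0.199 for NR3C1, with SE from 0.71 to 2.60 and all had an adjusted p of 0.987 in edgeR. Of 21431 genes, 0 were called (0%) by edgeR, 123 had an unadjusted p below 0.05, DESeq2 called 2 and limma voom 0. All 8 fold changes were negative in this fit, in which replacer milk holds 2 span-proportional libraries of 3 and doe milk 1 of 3. For KLF9 the sign turned to 0.51 without D3, and for PER1 it turned to 0.00081. With library kind as a term NR3C1, TSC22D3 and DDIT4 turned positive. With that term KLF9 (−0.32), PER1 (−0.27), SGK1 (−0.085), FKBP5 (−0.33) and CRISPLD2 (−0.62) stayed negative. The largest SE were those of TSC22D3 (2.30) and DDIT4 (2.60), whose levels differ most between the kinds.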

How the data were processed

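The authors deposited 1 table of raw counts per gene for 6 libraries, in whole numbers. The RNA was total RNA (TRIzol) and the library kit NEBNext Ultra II, per the labels' protocols. Per the submitters' processing notes the tools included fastp 0.22.0, STAR 2.7.10a and featureCounts 2.0.0. Strand setting, build and annotation were not given in the sources used here, so overlapping antisense reads could not be separated. Nothing in the labels beyond the word biological says that the libraries come from separate animals. In the transcript-like fit the p-values rest on the spread between D1 and D2 and on spread borrowed across genes. Over all 6 libraries the spread also holds the difference between the library kinds.

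Members and gene lists were chosen with earlier results of these data known, as was the split into library kinds. After filterByExpr and TMM scaling, genes were tested with edgeR 4.0.16 in R 4.3.3 (robust quasi-likelihood test, two-sided, Benjamini-Hochberg over all genes tested, adjusted p below 0.05). Intervals of fold changes use the t distribution of the fit. Alternatives were other scalings and filters, DESeq2 1.42.0, limma voom 3.58.1, a replicate block and each library left out. Library kind as a term was added after seeing the data. The edgeR code was run on simulated counts that shared a mean profile across libraries and had less spread than these data. That run checked the code and does not show the error rate of the test in these data. Gene spans are those of the RefSeq ARS1.2 table, which holds 92.9% of the genes. The authors' build is unknown, so only span lengths were used. TSC22D3 was not checked for overlapping genes, and the other 7 have 0 in that table. Poisson intervals take each count as an independent read, although 61.2% to 66.9% of the counts from 2 to 9 in a library were even.

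Named genes were the 8 members, up to 4 genes of each list with the highest mean CPM and 2 with the largest absolute fold change, and for marker lists 2 by level. CXCR2 and the genes marked so in the text were picked after seeing their values. A planned promoter motif search was not run, and sequences were not used here.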

Additional observations from a re-analysis of the deposited data

How the results depend on the processing

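The count of genes called in the transcript-like libraries depended on the setting, while none of the 8 members was called under any setting that gave a test. The count was 3, and became 5 with RLE and 5 with upper quartile scaling, 90 without a filter, 0 with at least 1 CPM in every library, 143 with DESeq2, 0 with limma voom and 1 with dispersions not robust. Over all 6 libraries it was 0, with 2 under DESeq2 and 1 with library kind as a term, and 0 with each library left out.

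In the transcript-like libraries 79 of 80 member values kept their sign. DDIT4 ran from −0.32 to 0.45 with a doe-milk library left out, values that have no test because 1 library per feed leaves no residual degree of freedom. Over all 6 libraries 96 of 104 kept their sign. With a library left out NR3C1 ran from −0.74 to 0.061 (0.0083 without R2), PER1 from −0.72 to 0.00081 and KLF9 from −0.63 to 0.51. NR3C1 was 0.076 with library totals only. With library kind as a term NR3C1 was 0.066, TSC22D3 0.073 and DDIT4 0.40, while the other members stayed negative. The cause was not tested. The replicate block also called 0 genes over all 6 libraries. Deviations from the group means of libraries with the same number correlated at 0.894, −0.886 and 0.927, and numbers 1 and 3 join libraries of the same kind while number 2 joins different kinds. These correlations therefore do not show whether equal numbers share a litter, day or batch, which the labels do not give. No paired analysis was possible within the transcript-like libraries because the feeds share only 1 number there.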

Other observations

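In the span-proportional libraries D3 stood above R2 and R3 for many genes. The median log2 ratio to their mean was 0.23 over the 20661 genes of at least 1 CPM on average there. It was 0.42 for the clock genes, 0.70 for the other induced targets and 0.59 for the list of receptor chaperones, steroid enzymes and NR3C2. Single clock genes, partners of PER1, lay further out in both directions. The clock repressor NR1D2 stood at 135 CPM in D3 against 16.2 and 19.2 CPM, and its paralogue NR1D1 at 36.8 against 9.25 and 7.04 CPM. PER2, a partner of PER1, stood at 56.1 against 20.2 and 24.1 CPM. The clock output factor DBP went the other way, at 6.87 against 50.02 and 51.5 CPM. Of 19 clock genes, 14 were higher in D3 than in both others, beside 11733 (56.8%) of the 20661 genes. Lower than both were 5 clock genes, beside 7986 of the 20661. In the transcript-like libraries NR1D1 was at 27.6 and 20.6 CPM in doe milk and 19.4 CPM in replacer milk, and DBP at 27.7 and 21.8 against 33.0 CPM. They were picked with their values in view, no test was made on 1 library against 2, and the time of day of sampling is not given in the labels.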
